A study of Mus musculus with 10 samples.

Results

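The 8 Usher syndrome genes Myo7a, Cdh23, Pcdh15, Whrn, Adgrv1, Ush1c, Ush1g and Clrn1 were followed in CUT&Tag profiles of cultured mouse retina. In CUT&Tag, an antibody to a histone mark brings a transposase to chromatin, and the fragments it releases are sequenced. All peaks carrying one of the 8 symbols in the peak annotation were taken, whether in promoters or not. They were 209 of 108253 peaks, 16 of them promoter peaks and 193 elsewhere, and 8 of 25400 gene symbols with a peak. Per the study's methods, the set was merged from H3K18La peaks called in retinas of several postnatal ages and not in these explants, so both marks were read only within it, and H3K27Ac outside it was not analysed here. Retinas of C57BL/6J mice at postnatal day 28, freed of the pigment epithelium by dissection, were kept as explants for 48 hours in medium with 5 mM or 25 mM glucose. Lactylated lysine 18 of histone H3 (H3K18La) was profiled in 3 libraries per glucose level and acetylated lysine 27 (H3K27Ac) in 2, from 500000 cells each, and all 10 libraries bore the same batch label. The study's methods speak of biological replicates, but the labels do not say whether libraries of a group came from separate animals, so p-values measure the spread between these libraries, which may be partly technical.

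Usher syndrome joins hearing loss with retinitis pigmentosa, a slow loss of photoreceptors. The proteins of its genes hold together the stereocilia of inner ear hair cells and, in photoreceptors, lie at the connecting cilium, the periciliary membrane and the calyceal processes. Myosin VIIa is the motor of the group, harmonin (Ush1c), SANS (Ush1g) and whirlin (Whrn) are scaffolds, cadherin 23 and protocadherin 15 are adhesion proteins that form the tip links of hair cells, Adgrv1 is a very large adhesion receptor, and clarin 1 (Clrn1) is a small membrane protein. H3K27Ac marks active promoters and enhancers, and H3K18La is a mark built from lactate that is also found at active chromatin.

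The 6 windows below are shown because they lie at the strongest promoter peaks of the 4 genes with the most H3K27Ac, and at the strongest other peaks of Pcdh15 and Whrn. Each is read in the direction of its gene from the GRCm38.p6 genome, 300 bases around the centre of the peak, less any bases annotated as UTR. Capitals mark TAATCC, the site of the photoreceptor factors CRX and OTX2, TGCTGA, the core of the site of NRL and other MAF factors, or GGGCGG, the GC box of SP and KLF factors, or their reverse complements.
Pcdh15 promoter peak, chr10:73822449-73822748, plus strand: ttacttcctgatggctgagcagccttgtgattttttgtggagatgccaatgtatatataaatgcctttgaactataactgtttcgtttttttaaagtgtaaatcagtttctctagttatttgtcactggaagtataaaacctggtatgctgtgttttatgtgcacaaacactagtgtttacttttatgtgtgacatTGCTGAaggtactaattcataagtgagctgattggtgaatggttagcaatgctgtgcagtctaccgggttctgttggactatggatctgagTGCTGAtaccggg
Pcdh15 intronic peak, chr10:73700811-73701110, plus strand: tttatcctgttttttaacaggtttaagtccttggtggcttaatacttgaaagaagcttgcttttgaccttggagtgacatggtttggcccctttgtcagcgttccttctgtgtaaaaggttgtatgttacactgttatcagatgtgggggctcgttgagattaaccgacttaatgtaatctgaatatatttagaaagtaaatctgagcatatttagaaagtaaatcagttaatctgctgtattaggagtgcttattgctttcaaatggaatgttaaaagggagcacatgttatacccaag
Adgrv1 promoter peak, chr13:81633155-81633426, minus strand: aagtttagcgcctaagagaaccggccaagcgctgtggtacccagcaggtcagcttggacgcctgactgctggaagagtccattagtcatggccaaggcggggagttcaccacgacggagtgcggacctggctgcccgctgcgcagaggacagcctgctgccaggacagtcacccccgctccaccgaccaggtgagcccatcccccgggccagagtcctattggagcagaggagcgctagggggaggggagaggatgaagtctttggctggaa
Whrn promoter peak, chr4:63493680-63493979, minus strand: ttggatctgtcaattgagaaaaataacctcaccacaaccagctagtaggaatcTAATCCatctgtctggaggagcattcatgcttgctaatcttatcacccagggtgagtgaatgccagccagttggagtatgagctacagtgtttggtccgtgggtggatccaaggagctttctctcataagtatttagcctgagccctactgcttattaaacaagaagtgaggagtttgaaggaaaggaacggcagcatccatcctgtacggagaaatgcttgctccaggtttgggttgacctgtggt
Whrn upstream peak, chr4:63501076-63501375, minus strand: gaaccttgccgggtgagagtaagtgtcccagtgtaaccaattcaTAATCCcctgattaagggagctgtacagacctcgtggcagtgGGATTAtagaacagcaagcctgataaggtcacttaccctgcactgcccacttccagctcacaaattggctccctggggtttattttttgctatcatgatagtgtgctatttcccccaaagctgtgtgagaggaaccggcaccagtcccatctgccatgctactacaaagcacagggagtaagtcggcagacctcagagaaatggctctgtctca
Myo7a promoter peak, chr7:98108845-98109141, minus strand: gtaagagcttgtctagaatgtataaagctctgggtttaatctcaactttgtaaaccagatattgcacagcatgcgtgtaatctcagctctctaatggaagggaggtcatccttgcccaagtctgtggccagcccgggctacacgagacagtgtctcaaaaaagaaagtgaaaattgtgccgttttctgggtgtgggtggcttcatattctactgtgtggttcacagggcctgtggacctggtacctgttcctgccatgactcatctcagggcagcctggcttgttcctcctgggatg

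The Pcdh15 promoter window held 38.3% GC, above only 0.566% of windows at promoter peaks, whose median was 60.3%. The Whrn and Myo7a promoter windows held 46.3% and 49.3%, and that of Adgrv1 62.7%. TAATCC was found in 2 of the 7 members' strongest promoter windows, those of Whrn and Adgrv1, against 6.95% of windows at all 17144 promoter peaks. The match at Adgrv1 lay among the 28 UTR bases left out above. Of the 11 members' windows searched at named non-promoter peaks, 4 held TAATCC, against 12.3% of windows at all non-promoter peaks. There were 2 matches in the upstream window of Whrn, 2 in that of the Pcdh15 peak at 73862224 and 1 each in those of the Pcdh15 peak at 73732032 and the Clrn1 peak at 58873068. TGCTGA was found in 2 of the 7 promoter windows, Pcdh15 and Ush1g, against 18.4%, and GGGCGG in 1, Ush1g, against 44.8%. Of the 11 non-promoter windows, TGCTGA was in 1, against 26.0% of all such windows, and GGGCGG in 1, against 5.55%. The 11 windows had been picked by signal strength or by size of rise. A match is a run of letters and not a measured binding site.

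The values are RPKM, reads scaled to the width of the peak in kilobases and to the size of the library, and a gene's locus is the sum of all its peaks, so that levels of different genes are compared per length. It is not known whether the denominators of the RPKM hold normalization factors of the authors. If so, the shares given next are not true shares of reads. Recovered from the values, these denominators were 1358008 to 7424470 reads. The share of those reads that fell in peaks moved with glucose, from 12% in each H3K18La library at 5 mM to between 31.2 and 35.0% at 25 mM, and from 21.1 and 31.5% to 69.5 and 56.5% for H3K27Ac. The median locus accordingly stood 0.69 higher at 25 mM for H3K18La and 0.70 for H3K27Ac on the log2 scale, and member values are given beside those medians. Usher peaks took 345 to 1313 reads of an H3K18La library at low glucose and 1598 to 3060 at high glucose. For H3K27Ac these numbers were 1754 and 4126, then 8806 and 8246. Between 3 and 59 of the peaks held 0 reads in a library.

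Marker genes of all 5 classes of retinal neurons and glia looked at summed higher at 25 mM in both marks, with no overlap between glucose levels within a class. Among single loci of all genes, levels did not overlap upward at 46.6% in H3K18La and 65.6% in H3K27Ac. Rod markers, 6 of 6 with peaks, summed to 8.22 to 10.1 RPKM at 5 mM and 35.9 to 71.0 RPKM at 25 mM for H3K18La, and to 31.3 to 53.6 and 146 to 235 RPKM for H3K27Ac. For cones the sums went from 6.21 to 7.48 up to 17.6 to 21.0 RPKM of H3K18La, and from 5.59 to 6.69 up to 15.9 to 17.2 of H3K27Ac. For Muller glia, bipolar cells and amacrine cells, the ranges over the 3 classes were, for H3K18La, 3.05 to 8.37 RPKM at 5 mM and 7.46 to 18.7 RPKM at 25 mM, and for H3K27Ac 8.15 to 17.7 and 20.6 to 38.2 RPKM. In H3K18La the levels of pigment epithelium and microglia markers overlapped between glucose levels. Few reads lay behind these 2 lists. At 5 mM, 2 pigment epithelium genes held more than 3 reads over the H3K18La libraries and 1 over the H3K27Ac libraries. For microglia this was so of 2 genes in each mark. Pigment epithelium markers, 4 of 6 with peaks, summed to 1.47 to 3.72 RPKM at 5 mM and 2.32 to 6.58 at 25 mM for H3K18La, and to 0.785 to 2.16 and 2.55 to 3.58 RPKM for H3K27Ac. Microglia markers, 3 of 4 with peaks, summed to 1.81 to 3.71 and 2.72 to 5.45 RPKM for H3K18La, and to 2.50 to 3.66 and 5.43 to 6.05 RPKM for H3K27Ac. The part of cell makeup in the results below was not tested, and a mark on fewer cells and less of the mark per cell cannot be told apart in bulk libraries.

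The genes differed widely in how many peaks of the set they held, which does not count the chromatin marked in these explants. Pcdh15, on chromosome 10, had 114 of the 209 peaks over 86.0 kb, and stood 6th of all genes by number of peaks. Cdh23, on the same chromosome, had 32 peaks, Whrn on chromosome 4 had 22, Adgrv1 on chromosome 13 had 19, Myo7a on chromosome 7 had 9, Ush1c on the same chromosome had 6, Clrn1 on chromosome 3 had 5 and Ush1g on chromosome 11 had 2. Ush1c had no promoter peak in the set. Promoter peaks made up 15 of the 95 peaks of the 7 genes other than Pcdh15 and 1 of its 114.

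Whrn was the most strongly acetylated locus. Its H3K27Ac level was 14.9 ± 1.50 RPKM (SD, n = 2) at 25 mM, above 87.5% of all loci. Adgrv1 followed with 7.54 ± 0.397, Myo7a with 6.94 ± 1.15 and Pcdh15 with 5.77 ± 0.265 RPKM. The libraries of Adgrv1 and Myo7a overlapped, while those of Whrn lay above both and those of Pcdh15 below both. Ush1g (2.17 ± 0.163), Cdh23 (1.47 ± 0.217), Ush1c (1.37 ± 0.122) and Clrn1 (0.572 ± 0.357) formed the low end, where Cdh23 and Ush1c overlapped.

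For H3K18La at 25 mM the order changed. Pcdh15 led with 5.76 ± 0.268 RPKM (SD, n = 3), above 92.6% of loci, and Whrn followed with 5.34 ± 1.02, the libraries of the pair overlapping. Myo7a stood at 3.48 ± 0.440 and Adgrv1 at 2.58 ± 0.269 RPKM, with no overlap between them, while those of Adgrv1 and Ush1c overlapped. Ush1c (1.89 ± 0.487), Cdh23 (1.84 ± 0.0603), Clrn1 (1.02 ± 0.373) and Ush1g (0.735 ± 0.240) were low, and each overlapped the next except Cdh23 and Clrn1. At 5 mM all 8 loci lay between 0.578 and 1.71 RPKM for H3K18La.

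**Figure D1:**
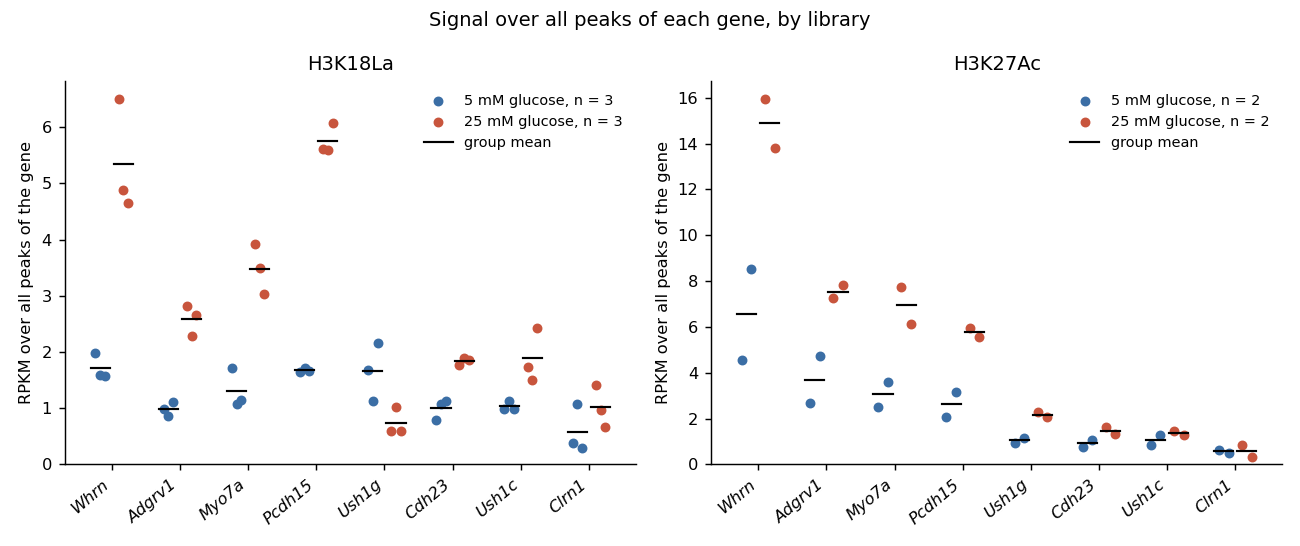
RPKM of H3K18La (left) and H3K27Ac (right) over all peaks of each Usher gene, 1 point per library, blue at 5 mM and red at 25 mM glucose, with the group mean as a bar. Whrn reached 14.9 RPKM of H3K27Ac at 25 mM, and Ush1g is the gene whose H3K18La points at 25 mM lie below those at 5 mM.

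More H3K18La was found at 25 mM than at 5 mM glucose over Pcdh15, Whrn, Myo7a and Adgrv1. These 4 of 8 loci passed the limma test at an adjusted p of 0.05, all upward, where 30.9% of all 25400 loci rose and 0.205% fell. They are the 4 members with the most H3K27Ac. Cdh23, Ush1c, Clrn1 and Ush1g did not pass, and the estimate for Ush1g was negative.

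Over the protocadherin 15 locus, H3K18La was 1.64, 1.71 and 1.67 RPKM at 5 mM and 5.61, 5.60 and 6.07 RPKM at 25 mM. The groups lay far apart and each was narrow. The means differed 3.44-fold, a log2 change of 1.52 ± 0.13 (SE) on the log2(RPKM + 0.5) scale with a limma adjusted p of 0.000406, larger than at 89.8% of loci. Whirlin rose from 1.97, 1.59 and 1.57 to 6.51, 4.88 and 4.64 RPKM. Its log2 change was 1.39 ± 0.18, with a limma adjusted p of 0.00141.

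Myosin VIIa held 1.71, 1.07 and 1.15 RPKM of H3K18La at 5 mM and 3.91, 3.50 and 3.04 RPKM at 25 mM. The change was 1.15 ± 0.20 (log2, limma adjusted p = 0.00535). Adgrv1 held 0.986, 0.865 and 1.10 RPKM at 5 mM and 2.81, 2.29 and 2.65 RPKM at 25 mM. The change was 1.05 ± 0.19 (log2, limma adjusted p = 0.00606). In all 4 genes each library at 25 mM exceeded each at 5 mM, and the 4 calls held without any of the 6 libraries, with limma adjusted p of at most 0.0280. Scaled to reads in peaks instead, the log2 changes of Pcdh15, Whrn, Myo7a and Adgrv1 were 0.29, 0.16, -0.02 and -0.05, and 0 of the 8 loci passed. With values centred on the median locus, Pcdh15 and Whrn passed upward and Myo7a and Adgrv1 did not, and over non-promoter peaks only Myo7a did not.

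The tip-link partner of protocadherin 15, cadherin 23, changed less. Its H3K18La was 0.795, 1.08 and 1.13 RPKM at 5 mM and 1.78, 1.89 and 1.85 RPKM at 25 mM, a log2 change of 0.65 ± 0.21 that missed the threshold (limma adjusted p = 0.0525). It passed with a mean RPKM of at least 1 (limma adjusted p = 0.0340), non-robust moderation (0.0365), voom on the reads (7.6e-05) or non-promoter peaks only (0.0367), and over all alternatives adjusted p reached 0.913. The groups did not overlap, which held upward for 6 of the 8 members and 46.6% of all loci. Harmonin, Ush1c, gave 0.62 ± 0.23 (limma adjusted p = 0.0801) and clarin 1 gave 0.53 ± 0.37 (limma adjusted p = 0.321), each below the median locus.

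The scaffold SANS, Ush1g, went the other way in H3K18La. Its locus held 1.67, 1.13 and 2.17 RPKM at 5 mM and 0.599, 1.01 and 0.595 RPKM at 25 mM, with no overlap. Groups that did not overlap downward were found at 0.906% of all loci. The log2 change was -0.79 ± 0.28, lower than at all but 2.11% of loci, and did not pass (limma adjusted p = 0.0740), but did with values centred on the median locus (limma adjusted p = 0.0274, the lowest of the alternatives, whose highest was 0.238). Only 2 to 10 reads per library lie behind each of these values. A second peak of Ush1g, nearest to its start by the annotation, lies in intron 1 of its neighbour Otop2, so that the locus is not purely Ush1g. H3K18La at that peak changed by -0.06 ± 0.54 (log2, limma adjusted p = 0.959), with overlap between glucose levels.

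For H3K27Ac, 5 of the 8 loci passed, all upward, where 43.3% of all loci rose and 1.09% fell. They were Myo7a, Pcdh15, Whrn, Ush1g and Adgrv1. Myosin VIIa went from 2.52 and 3.58 RPKM to 7.75 and 6.13, a log2 change of 1.07 ± 0.39 (limma adjusted p = 0.0181). Protocadherin 15 went from 2.09 and 3.14 to 5.95 and 5.58 RPKM, a change of 1.03 ± 0.37 (log2, limma adjusted p = 0.0181). Both changes were larger than the median of 0.70.

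Whirlin went from 4.55 and 8.53 to 16.0 and 13.8 RPKM of H3K27Ac, a log2 change of 1.18 ± 0.45 (limma adjusted p = 0.0239). Adgrv1 went from 2.66 and 4.71 to 7.26 and 7.82 RPKM, a change of 0.99 ± 0.40 (log2, limma adjusted p = 0.0350). Ush1g went from 0.952 and 1.14 to 2.29 and 2.06 RPKM, a change of 0.79 ± 0.32 (log2, limma adjusted p = 0.0317). In these 5 genes and in Cdh23 the groups did not overlap, which was so upward at 65.6% of all loci.

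Cdh23 (0.48 ± 0.32, limma adjusted p = 0.221), Ush1c (0.27 ± 0.32, adjusted p = 0.518) and Clrn1 (-0.04 ± 0.37, adjusted p = 0.947) did not pass in H3K27Ac. The H3K27Ac calls rest on 2 libraries per group and on a spread taken almost wholly from the other loci. None of the 5 passed with non-robust moderation or on leaving out any 1 of the 4 libraries, when their limma adjusted p ran from 0.0860 to 0.289, and scaled to reads in peaks all 5 changes were negative, from -0.17 to -0.03.

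**Figure D2:**
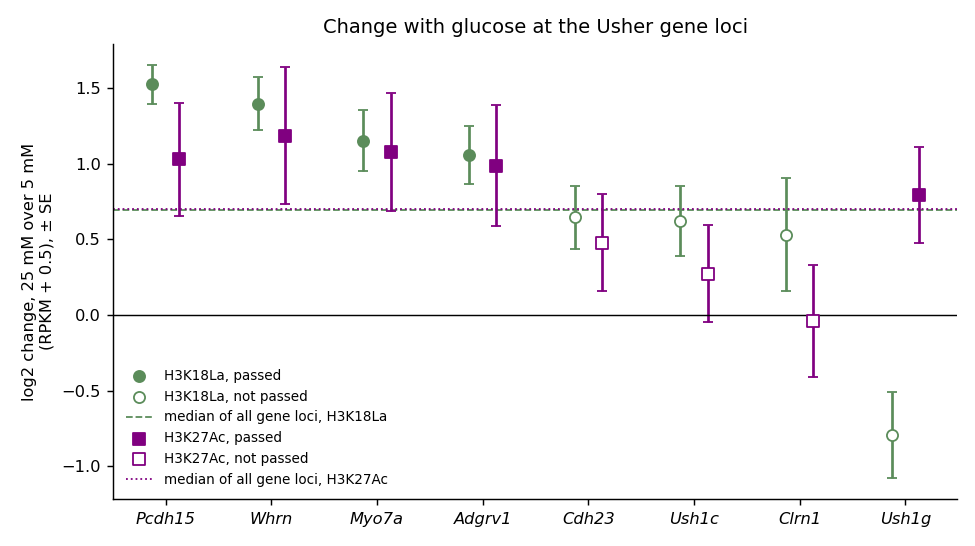
Log2 change from 5 to 25 mM glucose at each Usher locus, on the log2(RPKM + 0.5) scale with its standard error, for H3K18La (circles) and H3K27Ac (squares), filled where the adjusted p was under 0.05. The dashed and dotted lines give the median of all loci, 0.69 and 0.70, and Ush1g lies at -0.79 in H3K18La and 0.79 in H3K27Ac.

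The change was compared directly between the marks with a glucose by mark term over the 10 libraries. At 0 of 8 loci did it pass, as at 0 of 25400, while 1 of the 8 had an unadjusted p under 0.05. That was Ush1g, where the H3K27Ac change exceeded the H3K18La change by 1.59 ± 0.39 on the log2 scale, with a limma p of 0.00255 before and 0.751 after adjustment. The difference for Pcdh15 was -0.50 ± 0.31 (limma adjusted p = 0.806), toward the larger H3K18La change. The term rests on 2 or 3 libraries per group, and a p that misses the threshold does not show that the marks changed alike.

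Taken 1 peak at a time, H3K18La rose at 83 of the 209 Usher peaks (39.7%) and fell at 0, where 20.6% of all 108253 peaks rose and 0.117% fell. Pcdh15 held 63 of the 83. The other 7 genes together had 20 of 95 peaks called (21.1%), close to the background. Whrn had 11 of its 22, Adgrv1 3 of 19, Cdh23 2 of 32, Myo7a 2 of 9, Ush1c 2 of 6, and Clrn1 and Ush1g 0. Without 1 of the libraries the count ran from 44 to 82, and it was 53 without replicate 1 and 44 without replicate 2 at 25 mM. With values centred on the median peak it was 18, and scaled to reads in peaks 0.

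H3K27Ac rose at 28 of the 209 peaks (13.4%) and fell at 0, against 16.4% and 0.179% of all peaks. Of these, 21 lay in Pcdh15, 4 in Whrn, 2 in Myo7a and 1 in Adgrv1. The 7 genes other than Pcdh15 thus had 7 of 95 peaks called (7.37%). Of the 28 peaks, 22 were also among the 83 of H3K18La, which is 78.6% of the H3K27Ac peaks and 26.5% of the H3K18La peaks. Of all 108253 peaks, 8.16% rose in both marks, which is 49.6% of those called in H3K27Ac and 39.5% of those called in H3K18La. Leaving out any 1 of the 4 H3K27Ac libraries, or scaling to reads in peaks, left 0 called, and centring on the median peak left 6. The glucose by mark term passed at 0 of the 209 peaks and at 0 of all peaks in limma, with an unadjusted p under 0.05 at 13 of the 209 and 4.61% of all.

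Glucose levels did not overlap upward at 115 of the 209 peaks in H3K18La, against 36.6% of all peaks, and downward at 3, against 0.821%. Pcdh15 held 78 of the 115, and the other 7 genes 37 of 95 (38.9%). In H3K27Ac, with 2 libraries per level, they did not overlap upward at 123, against 53% of all peaks, and downward at 8, against 6.37%.

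H3K18La rose at 7 of 16 promoter peaks and at 76 of 193 others of the Usher genes, beside 20.4% of all promoter peaks and 20.7% of all others. Without Pcdh15, 14 of 80 non-promoter peaks rose (17.5%). For H3K27Ac, 6 of 16 promoter peaks rose against 22 of 193, beside 40.6% and 11.9% of all such peaks. Of the 80 non-promoter peaks outside Pcdh15, 2 rose in H3K27Ac (2.5%). All 16 promoter estimates were positive for H3K27Ac, with a median log2 change of 1.11 beside 1.13 for all promoter peaks. For H3K18La 13 of 16 were positive, with a median of 1.35 beside 0.88.

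The Adgrv1 promoter peak, at chr13:81632782-81633772 over the start of its long transcripts, was the strongest acetylated promoter of the group. Its H3K27Ac was 11.7 and 22.7 RPKM at 5 mM and 56.4 and 51.5 RPKM at 25 mM, above 99.4% of all promoter peaks at 25 mM. Its H3K18La was 3.35, 3.12 and 2.23 RPKM at 5 mM and 17.5, 9.68 and 10.9 RPKM at 25 mM. Both marks rose, by 1.69 ± 0.50 (log2, limma adjusted p = 0.0282) and 1.93 ± 0.31 (limma adjusted p = 0.000813). The remaining 18 peaks of the gene were far weaker. The strongest of them, in intron 28 of 89, reached 10.1 and 10.0 RPKM of H3K27Ac at 25 mM.

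The protocadherin 15 promoter peak, at chr10:73821664-73823535, covers the start of coding transcripts. H3K18La was 1.77, 1.34 and 1.57 RPKM there at 5 mM and 7.88, 8.15 and 9.19 RPKM at 25 mM. H3K27Ac was 5.44 and 9.63, then 25.5 and 22.7 RPKM. The log2 changes were 2.11 ± 0.32 (limma adjusted p = 0.000563) and 1.66 ± 0.46 (limma adjusted p = 0.0229).

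Whirlin had 4 promoter peaks, of which 3 rose in H3K18La and 2 in H3K27Ac. The strongest, at chr4:63493511-63494149, is named for the start of a non-coding transcript, and holds the TAATCC window printed above. Its H3K27Ac went from 4.70 and 10.3 to 43.1 and 32.7 RPKM, a log2 change of 2.34 ± 0.48 (limma adjusted p = 0.0127) that was among the 3 largest of all called Usher peaks. Its H3K18La went from 1.48, 1.51 and 0 RPKM, on 0 to 5 reads, to 5.57, 5.39 and 4.22 RPKM, a change of 2.13 ± 0.53 (log2, limma adjusted p = 0.0118), and 2 of the 6 libraries were needed for that call. Its neighbour, at chr4:63494353-63496555 over the start of the coding transcripts, went from 3.99 and 4.82 to 23.9 and 12.3 RPKM of H3K27Ac, a log2 change of 1.85 ± 0.45 (limma adjusted p = 0.0165), and rose by 2.16 ± 0.57 in H3K18La (limma adjusted p = 0.0163). Another, at chr4:63472331-63474149 over the start of a coding transcript, held 1.56, 2.33 and 0 RPKM of H3K18La at 5 mM and 7.83, 4.73 and 7.41 RPKM at 25 mM. It rose by 2.29 ± 0.56 in H3K18La (log2, limma adjusted p = 0.0103), while its H3K27Ac change of 1.17 ± 0.46 did not pass (limma adjusted p = 0.0814). The peak at chr4:63460794-63462324, at the start of a retained-intron transcript, passed in neither mark (limma adjusted p = 0.691 and 0.368).

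The strongest H3K18La of the Whrn locus lay outside the gene, at -4718 bases from the nearest start, at chr4:63500709-63501744. It held 4.58, 3.17 and 2.84 RPKM at 5 mM and 25.5, 14.2 and 12.04 RPKM at 25 mM, a log2 change of 2.09 ± 0.31 (limma adjusted p = 0.000547). H3K27Ac there went from 7.14 and 16.0 to 36.2 and 31.1 RPKM, with a change of 1.60 ± 0.49 (limma adjusted p = 0.0320). This is the upstream window with 2 TAATCC matches. The 11 called H3K18La peaks of Whrn lay in the promoters, intron 1, this upstream element, intron 3, intron 7 and a 3′ UTR.

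Myosin VIIa had 4 promoter peaks, which belong to different annotated starts. The strongest, at chr7:98108513-98109477, covers the start of shorter coding transcripts, while the peak at chr7:98118253-98120082 covers the start of the longest. At the former, H3K27Ac was 5.75 and 7.68 RPKM at 5 mM and 19.0 and 13.5 RPKM at 25 mM, and at the latter 2.15 and 2.38, then 5.01 and 4.27 RPKM. In all 4 H3K27Ac libraries and all 6 H3K18La libraries the shorter start was the higher. H3K18La at the shorter start went from 2.46, 1.80 and 3.05 to 7.91, 8.92 and 5.24 RPKM and rose by 1.41 ± 0.34 (log2, limma adjusted p = 0.00917), losing the call without 1 of the 6 libraries. H3K27Ac there changed by 1.21 ± 0.44 (limma adjusted p = 0.0618), short of the threshold. At the longest start neither mark passed, with limma adjusted p of 0.0710 and 0.123. The 2 Myo7a peaks called in H3K27Ac were the other promoter peaks, at the starts of non-coding transcripts, at chr7:98102439-98103946 with a log2 change of 1.56 ± 0.42 (limma adjusted p = 0.0218) and at chr7:98110502-98113147 with 1.38 ± 0.43 (limma adjusted p = 0.0322). The latter rose in H3K18La too, by 1.65 ± 0.44 (limma adjusted p = 0.0158).

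The promoters of Cdh23, Clrn1 and Ush1g were weak. The strongest promoter peak of Cdh23, at chr10:60305017-60306082, lies at the start of a short retained-intron transcript near the 3′ end of the gene. It held 3.39 and 2.78 RPKM of H3K27Ac at 25 mM and 0.477 to 0.949 RPKM of H3K18La. That of Clrn1, at chr3:58865680-58866174, held 0 to 8 reads in every library. That of Ush1g, at chr11:115321564-115322712, held 1.65, 1.34 and 2.56 RPKM of H3K18La at 5 mM, on 4 to 8 reads, and 0.443, 0.428 and 0.587 RPKM at 25 mM, on 1 or 2 reads. None of the 3 passed in either mark. The H3K18La estimate at the Ush1g promoter was -1.22 ± 0.52 (log2, limma adjusted p = 0.113), and its H3K27Ac went from 0.604 and 0.561 to 1.57 and 1.17 RPKM.

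**Figure D3:**
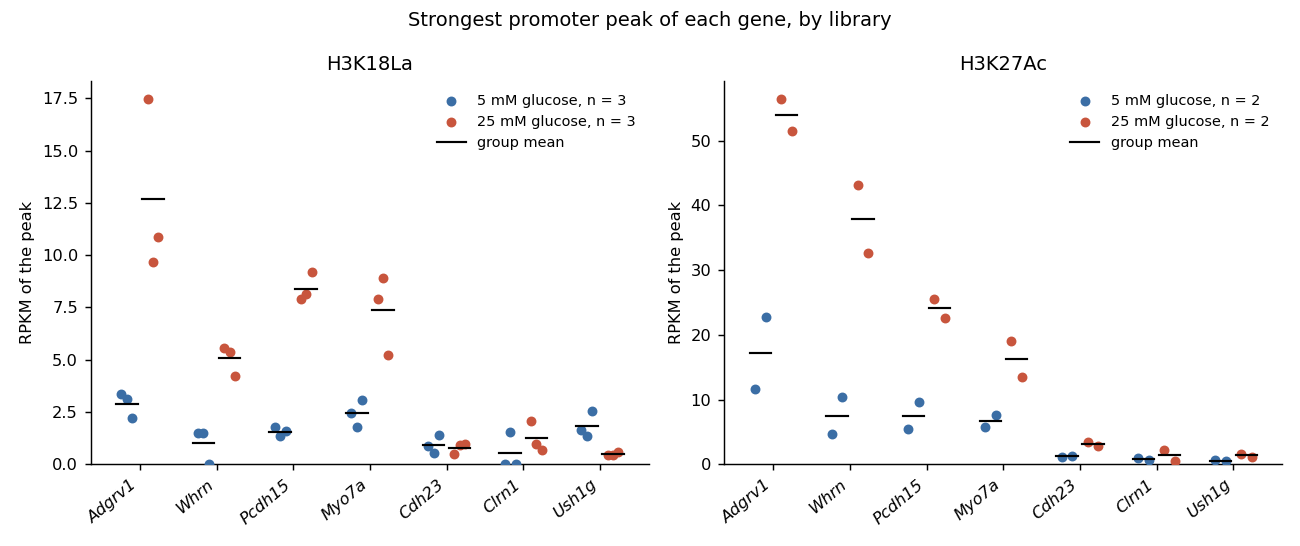
RPKM of the strongest promoter peak of each Usher gene with one, in H3K18La (left) and H3K27Ac (right), 1 point per library with the group mean as a bar, blue at 5 mM and red at 25 mM glucose. Adgrv1, Whrn, Pcdh15 and Myo7a stand above the other 3 genes at 25 mM, with 16.3 to 54.0 RPKM of H3K27Ac on average.

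The 114 peaks of Pcdh15 were unevenly spread along its length, and H3K18La and H3K27Ac were spread differently. A set of 50 peaks lay before the promoter peak, between 73522190 and 73817093 on chromosome 10, in introns 2 and 3 of a retained-intron transcript that starts far upstream of the coding ones. A further 22 lay after it, in the first intron of the coding transcripts. These stretches were chosen after the values were seen, so no test is given.

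Before the promoter peak, H3K18La was 1.84, 2.02 and 2.22 RPKM at 5 mM and 7.58, 7.06 and 7.79 RPKM at 25 mM. H3K27Ac was 1.40 and 1.96, then 5.13 and 4.00 RPKM. In the first intron, H3K18La was 1.94, 1.76 and 1.57, then 6.50, 6.81 and 6.84 RPKM, and H3K27Ac was 3.42 and 5.49, then 11.0 and 9.81 RPKM. H3K18La was thus about as high on either side of the promoter peak, while H3K27Ac was higher after it. Within each library, the level before divided by that in the first intron was 0.945 to 1.41 in the 6 H3K18La libraries and 0.358 to 0.468 in the 4 H3K27Ac libraries.

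Peak by peak, mean H3K18La exceeded mean H3K27Ac at 25 mM in 48 of the 50 peaks before the promoter peak and in 3 of the 22 in the first intron, beside 45.3% of all non-promoter peaks. RPKM of 2 antibodies are not on a common scale, so only the contrast between stretches is read. H3K18La rose at 36 of the 50 peaks and at 20 of the 22, with median log2 changes of 1.64 and 1.81, against 20.6% and 0.76 for all peaks. H3K27Ac rose at 11 and at 8 of them, against 11.9% of all non-promoter peaks. In introns 2 and 3 of the coding transcripts, H3K18La rose at 4 of 22 peaks, a share near that of all peaks, and H3K27Ac at 0.

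The strongest Pcdh15 peak in both marks, at chr10:73700469-73701453, lay before the promoter peak, at -122 kb between peak centres, in intron 2 of 13 of the retained-intron transcript. Its H3K27Ac went from 7.75 and 9.64 to 60.7 and 33.4 RPKM, and its H3K18La from 6.26, 2.94 and 0.748 to 38.2, 19.0 and 15.4 RPKM. The log2 changes were 2.32 ± 0.48 (limma adjusted p = 0.0129) and 2.90 ± 0.50 (limma adjusted p = 0.00122). In both marks this peak was among the 3 largest rises of the Usher peaks. Its window, printed above, held 36.7% GC and none of the 3 motifs.

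The largest H3K18La rise was at chr10:73732032-73732514, in intron 3 of 13, with 0, 2.40 and 4.57 RPKM at 5 mM and 16.9, 16.8 and 17.5 RPKM at 25 mM, a log2 change of 3.17 ± 0.61 (limma adjusted p = 0.00246). Without the first library at 5 mM, which had 0 reads there, the change was 2.19 and lay below those of the peaks at 73700469 (3.47) and 73616764 (2.65). H3K27Ac there went from 3.83 and 7.33 to 12.1 and 12.8 RPKM and did not pass (limma adjusted p = 0.0736). The second, at chr10:73616764-73617349 in intron 2 of 13, went from 0, 1.32 and 0 to 3.47, 6.72 and 6.90 RPKM of H3K18La, on 0 to 16 reads. Its change was 2.96 ± 0.57 (log2, limma adjusted p = 0.00246), while its H3K27Ac was 0.789 and 3.85 RPKM at 5 mM and 2.85 and 1.15 at 25 mM. The largest H3K27Ac rise, at chr10:73862224-73862806 in the first intron of the coding transcripts, went from 2.38 and 1.66 to 23.8 and 9.01 RPKM, a change of 2.61 ± 0.46 (log2, limma adjusted p = 0.0109). Libraries at 25 mM differed widely there. Without the first of them the change was 1.93, below that of the Whrn promoter peak at 63493511 (2.14).

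Beyond the last exon, 7 intergenic peaks between 74679904 and 74712758 were assigned to Pcdh15. They held 1.69 ± 0.0513 RPKM of H3K18La at 5 mM and 4.36 ± 0.896 at 25 mM (SD, n = 3), and 2 of them rose. H3K27Ac there was 1.42 ± 0.257 and 1.94 ± 0.0434 RPKM (SD, n = 2), with 0 rises.

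**Figure D4:**
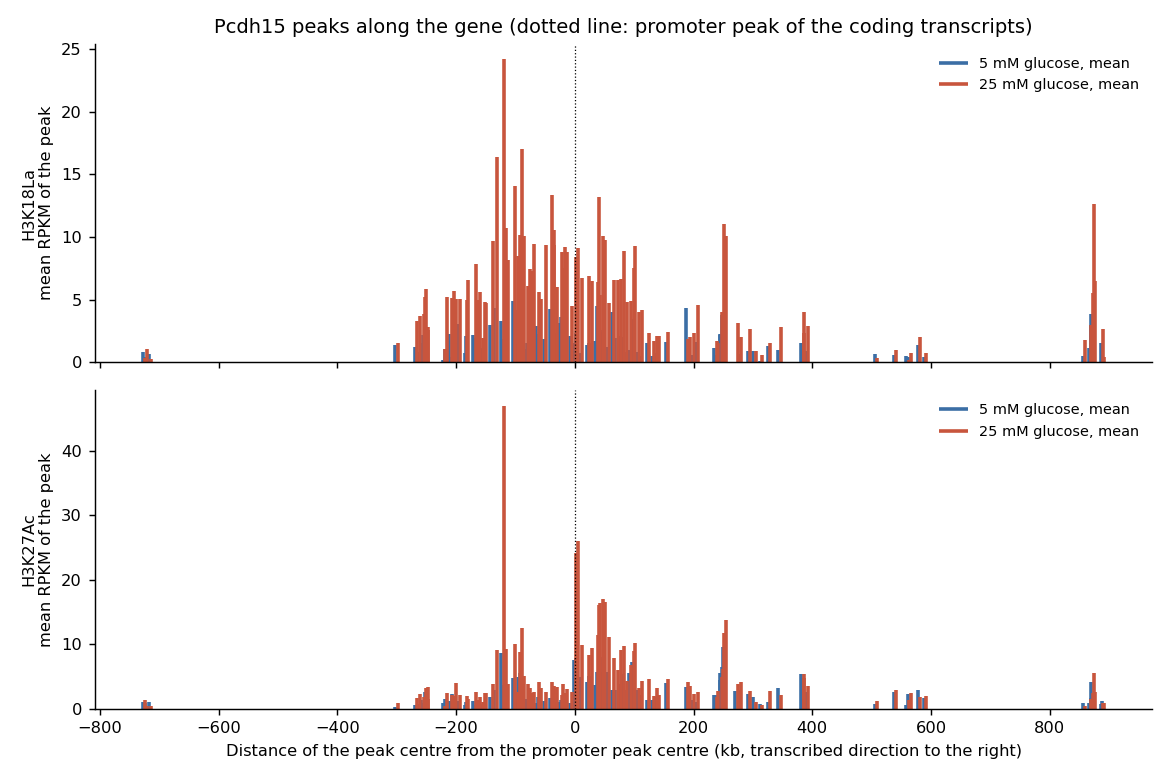
Mean RPKM of each of the 114 Pcdh15 peaks against its distance in kb from the promoter peak of the coding transcripts (dotted line), for H3K18La (top) and H3K27Ac (bottom), blue at 5 mM and red at 25 mM glucose, set slightly apart. H3K18La stands on both sides of the promoter peak, while H3K27Ac before it is at most 12.5 RPKM apart from the peak at -122 kb, which reaches 47.0 RPKM at 25 mM.

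Cadherin 23, adhesion partner of protocadherin 15, showed little of this. Its 32 peaks had mean H3K27Ac of at most 3.09 RPKM at 25 mM, and 2 rose in H3K18La. They lie in intron 12 and intron 5 of 66, with log2 changes of 1.80 (limma adjusted p = 0.0377) and 1.50 (limma adjusted p = 0.0308) on 0 to 10 reads per library. Ush1c had 2 called H3K18La peaks on 0 to 7 reads, in introns 20 and 4 of 26, with log2 changes of 2.05 (limma adjusted p = 0.0274) and 1.84 (limma adjusted p = 0.0419). Their H3K27Ac changes were -0.38 and 0.08 and did not pass. By the annotation 2 other Cdh23 peaks lie in introns of Vsir.

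Outside promoters, the members also differed in how often mean H3K18La exceeded mean H3K27Ac. RPKM of 2 antibodies are not on a common scale, so only the contrast between genes is read. The non-promoter peaks of Clrn1 together held 1 to 10 reads per library, and those of Ush1c 7 to 55. Mean H3K18La exceeded mean H3K27Ac at 25 mM in 20 of 29 non-promoter peaks of Cdh23, 5 of 6 of Ush1c, 4 of 4 of Clrn1 and 63 of 113 of Pcdh15, but in 2 of 17 of Adgrv1, 0 of 18 of Whrn, 0 of 5 of Myo7a and 0 of 1 of Ush1g, beside 45.3% of all non-promoter peaks.

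A list of 16 genes held those for proteins that bind Usher proteins and those of related disorders of hearing and sight, of which 12 had peaks. Of the 12 loci, 7 passed in H3K18La and 8 in H3K27Ac, all upward and 6 in both, where 30.9%, 43.3% and 20.7% of all loci did so. Their median log2 changes were 1.01 and 0.96. Scaled to reads in peaks, 0 of all 25400 loci passed in either mark, these included, and with non-robust moderation 0 passed in H3K27Ac. The largest H3K18La rise was at Eps8, which encodes an actin regulator of stereocilia, from 1.56 ± 0.0809 to 5.42 ± 0.349 RPKM (SD, n = 3), a log2 change of 1.52 ± 0.14 (limma adjusted p = 0.000455). Cep250, a centrosomal gene linked to atypical Usher syndrome, rose by 1.50 ± 0.20 in H3K18La (log2, limma adjusted p = 0.00173) and 1.66 ± 0.48 in H3K27Ac (limma adjusted p = 0.00380). Vezt, for a cell junction protein that binds myosin VIIa, rose by 1.39 ± 0.32 and 1.34 ± 0.43 (limma adjusted p = 0.0168 and 0.00788). Cib2, for a calcium-binding protein of the hair cell channel complex, rose by 1.18 ± 0.22 in H3K18La (limma adjusted p = 0.00709). In H3K27Ac, Cep78, for a centrosomal protein, rose by 1.51 ± 0.43 (limma adjusted p = 0.00359) and Abhd12, for a lipid hydrolase, by 1.25 ± 0.42 (limma adjusted p = 0.0116).

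Across the 10 libraries, which share the 2 antibodies, the glucose levels and the depth differences, the locus whose log2(RPKM + 0.5) was most like that of Whrn was Ttc17, with a Pearson r of 1.00. For Pcdh15 it was Tbc1d22a (r = 0.998), for Myo7a Pwwp2b (0.997), for Adgrv1 Ikzf2 (0.996), for Cdh23 Padi1 (0.992), for Ush1c Gpr39 (0.961) and for Clrn1 1700012E03Rik (0.904), among 6221 loci with at least 5 peaks. Such values were common for the stronger genes. The median r of all loci with Whrn was 0.760, and 2161 loci exceeded 0.9. With Ush1g the median was -0.08 and 0 loci exceeded 0.9, the nearest being 4930533K18Rik at 0.860.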

How the data were processed

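CUT&Tag libraries of H3K18La and H3K27Ac from retinal explants were grouped by mark and glucose from their labels. The authors processed reads with nf-core/cutandrun on GRCm38, called peaks with MACS, left out blacklisted regions, annotated peaks with ChIPseeker 1.34.1 and counted reads with csaw over a merged peak set. Per the study's methods that set came from H3K18La in retinas of several postnatal ages, so H3K27Ac was read only where H3K18La peaks had been called, and not in peaks of its own. The extract protocol in the labels names other reagents than the study's methods for the second antibody and the enzyme, and the marks are given here as the labels' titles name them. The deposited RPKM values are reads scaled to peak width and to a denominator per library, taken here for library size. Whether the denominators hold the authors' normalization factors is not known. A second deposited table holds the authors' own fold changes and p-values for H3K18La and was not used.

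All deposited values were whole multiples of 1 read (within 0.01), so reads per peak were recovered. A value of 0 allows up to 3 reads, and intervals of this kind cover counting error only. A locus is the summed reads of all peaks of a symbol over their summed width. Replacing the count model of the study, limma 3.58.1 in R 4.3.3 (eBayes with trend and robust moderation) was run on log2(RPKM + 0.5) over all peaks or all loci, each mark alone, with Benjamini-Hochberg adjustment and a threshold of 0.05, and a glucose by mark term was fitted over 10 libraries. Such changes understate those of weak peaks. The fits were tested on simulated counts, where changed peaks went uncalled when few were changed, so missing the threshold does not show that a peak was unchanged. Peaks annotated as promoters lay from -1000 to 500 bases of a start. Coordinates are those of the deposited file, and 23 of 23 member transcripts had the same ones in a GENCODE annotation of GRCm38. Python 3.11.15 with numpy 2.4.6 and pandas 2.3.3 read the files.

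For each member the strongest promoter and non-promoter peak by mean RPKM were named, and for each mark the 3 largest rises and falls among called peaks with groups apart. Peaks named for an alternative start, a called peak of a weak gene or a stretch of Pcdh15 were chosen after their values were seen. The members and lists were chosen with earlier results of these data known. As alternatives, the pseudocount was set to 0.1 or 1, peaks under a mean RPKM of 1 were dropped, and the rest comprised non-robust moderation, voom on the reads, 2 other scalings, a threshold of 0.01, a replicate block, promoter or other peaks alone, and leaving out each library.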

Additional observations from a re-analysis of the deposited data

Results flagged for a closer look

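The Ush1g locus was singled out because every H3K18La library at 25 mM lay below those at 5 mM and every H3K27Ac library above. The H3K18La change did not pass (limma adjusted p = 0.0740), and scaled to reads in peaks the H3K27Ac change was -0.17, of the same sign. The H3K27Ac change exceeded the H3K18La change by 1.59 on the log2 scale, with a limma p of 0.00255 that became 0.751 after adjustment over all loci. Its promoter peak is 1.149 of the 1.7 kb of the locus, so its values are no separate support. The difference there was 2.01 with a limma adjusted p of 0.971, on 1 to 8 reads per H3K18La library and 3 to 13 per H3K27Ac library. At the other peak, H3K18La was 1.25 ± 0.515 RPKM at 5 mM and 1.26 ± 0.860 at 25 mM (SD, n = 3), with overlap.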

How the results depend on the processing

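Of 519 values recomputed under alternatives, 375 kept their direction and side of the threshold, 105 lost the call, 9 gained it and 30 changed sign. The calls rest on how glucose levels are scaled against each other, since the recovered share of reads in peaks differed between them. Which scaling is right was not tested. Centring on the median feature lowered the median change by 0.63 (H3K18La) and 0.44 (H3K27Ac) over peaks and 0.59 in both marks over loci, and scaling to reads in peaks lowered it by 0.83, 0.88, 0.90 and 0.94. Few reads per peak limit the weak genes Clrn1, Ush1g and Ush1c.

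The 83 H3K18La peaks became 18 with centring, 0 with reads in peaks, 44 at a threshold of 0.01 and 44 to 82 without 1 library. The 28 H3K27Ac peaks became 0 with a pseudocount of 0.1, 46 with a mean RPKM of at least 1, 0 with non-robust moderation, 6 with centring, and 0 with reads in peaks, at 0.01 or without any 1 library. The 4 H3K18La loci became 0 with reads in peaks and stayed at 4 without any 1 library. With centring Pcdh15 and Whrn rose and Ush1g fell, over non-promoter peaks only Myo7a was lost, and Cdh23 was gained there, with non-robust moderation, with voom and without loci under a mean RPKM of 1. The 5 H3K27Ac loci became 0 with non-robust moderation, centring, reads in peaks, non-promoter peaks only, a threshold of 0.01 or any 1 library left out. Over the whole table, H3K18La rises went from 22347 peaks to 5195 with centring and 0 with reads in peaks, and from 7856 loci to 2397 and 0. H3K27Ac rises went from 17794 peaks to 5137, 0 and, with non-robust moderation, 0, and from 11007 loci to 1768, 0 and 0.

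Whether replicate numbers pair the libraries could not be settled. Deviations of same-numbered libraries correlated at -0.004 to 0.024 over peaks, and those of other libraries at -0.025 to 0.013. Few reads per peak weaken such correlations, and with 2 libraries per level those of H3K27Ac only mirror each other. With the replicate number as a block, 72 H3K18La peaks, 16 H3K27Ac peaks, 4 H3K18La loci and 0 H3K27Ac loci passed, and 0 between marks, with 8356 peaks and 1583 loci of the whole table for H3K27Ac.

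Changes of sign came mostly with reads in peaks. For loci, H3K18La changes became -0.015 (Myo7a), -0.42 (Cdh23), -0.045 (Adgrv1), -0.45 (Ush1c) and -0.32 (Clrn1), and H3K27Ac changes -0.074 (Myo7a), -0.42 (Cdh23), -0.10 (Pcdh15), -0.026 (Whrn), -0.17 (Adgrv1), -0.64 (Ush1c) and -0.17 (Ush1g). For H3K27Ac at named peaks they became -0.48 (Clrn1 promoter), -0.0068 (Myo7a promoter), -0.044 (Pcdh15 at 73732032) and -0.046 (Ush1g promoter). With centring, H3K27Ac became -0.11 at Cdh23, -0.32 at Ush1c and -0.038 at the Clrn1 promoter, and H3K18La -0.061 at Clrn1. Without 1 library, the Clrn1 change in H3K27Ac ran from -0.39 to 0.30 at the locus (0.40 over promoters only) and from -0.30 to 1.10 at the promoter. The Cdh23 promoter in H3K18La was 0.072 with voom and ran from -0.36 to 0.069 without 1 library. The Pcdh15 peak at 73616764 in H3K27Ac was 0.034 with a pseudocount of 0.1 and ran from -0.89 to 0.87 without 1 library.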
